A study of Mus musculus with 29 samples.

Results

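The difference between the ovaries of wild-type (WT) mice and of mice lacking Cdkn1b was followed here from postnatal day 8 (PND8) to 12 weeks of age (12wk). The quantity described is the genotype by age interaction, which is the log2 fold change of Cdkn1b-null over WT at 12wk minus the same log2 fold change at PND8. A positive interaction means that the Cdkn1b-null ovary stood higher relative to WT in the adult than in the pup, and an effect that changes sign has log2 fold changes of opposite direction at the 2 ages. It was computed from the 14 postnatal libraries among the 29 in the series, fitted together. The series profiled ovaries of both genotypes by bulk RNA sequencing at 2 embryonic and 2 postnatal ages, to ask how control of the cell cycle bears on the development of the ovary. The 4 groups used were WT (Cdkn1b +/+) ovaries at PND8 in 4 samples, Cdkn1b -/- ovaries at PND8 in 3 samples, WT ovaries at 12wk in 4 samples and Cdkn1b -/- ovaries at 12wk in 3 samples. The Cdkn1b-null replicates carry the numbers 1, 3 and 4 at both ages.

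Cdkn1b encodes p27Kip1, an inhibitor of cyclin-dependent kinases that binds cyclin and kinase complexes and holds cells before DNA replication. In the mouse ovary it is expressed in oocytes and in somatic cells. Mice without it are known for enlarged organs, for early activation and loss of the primordial follicles that make up the ovarian reserve, and for female infertility. At PND8 the ovary holds primordial and small growing follicles, whereas at 12wk it holds follicles of every stage, corpora lutea in cycling animals, and a larger stroma.

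All 4 groups were whole ovaries dissociated with papain, so each library mixes oocytes, granulosa cells, stroma, vessels and blood, and fewer cells of a type cannot be told apart from less RNA per cell. The null allele is carried by every cell of the animal, from fertilization on. The labels state neither the littermates, the strain background nor the stage of the oestrous cycle, and they do not say whether each sample is a separate animal, so that p-values measure the spread between these samples, which may be technical in part. Depth was 24072433 to 48213177 counts per library, and 3 counts, taken as the smallest level a library can show, equalled 0.0622 to 0.1246 CPM, the unit of level used below. CPM is the usual count scaled to the size of its library, here with sizes adjusted by the trimmed mean of M-values. They compare samples for 1 gene and are not corrected for gene length, so they are not compared between genes. Markers of the surface epithelium set 2 adult libraries apart. The mean log2 CPM of 14 such genes was -0.64 in the 12wk Cdkn1b-null replicate 1 and -0.83 in the 12wk WT replicate 2, against 3.38 to 4.32 in the other 5 adult libraries. Values without these 2 libraries, an alternative chosen after the data were seen, are given beside several of the results and lists below and among the dependences on processing.

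The targeted gene checked the labels. Cdkn1b (ENSMUSG00000003031, chr6:134920401-134925513, plus strand) stood at 122.2, 130.8, 154.6 and 128.6 CPM in WT and at 71.84, 63.27 and 59.23 CPM in Cdkn1b-null ovaries at PND8. At 12wk it stood at 120.2, 250.2, 118.3 and 217.5 CPM in WT and at 40.47, 52.45 and 55.02 CPM in Cdkn1b-null ovaries. Every Cdkn1b-null library was below every WT library of its age, and transcript was still counted in all of them. The part of the gene that is deleted is not given in the sources used here. The log2 fold change was -1.05 ± 0.24 (SE) at PND8 and -1.84 ± 0.25 at 12wk, where Cdkn1b fell by edgeR's quasi-likelihood test (Benjamini-Hochberg adjusted p = 0.0104). The interaction was -0.79 ± 0.33 and did not pass (edgeR, unadjusted p = 0.0342, adjusted p = 0.409). The WT libraries of 12wk fell into a lower and a higher pair, and without the adult libraries low in surface epithelium the interaction was -0.45.

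Across 18768 genes tested, 2 passed the interaction test at an adjusted p under 0.05 (0.0107% of genes), Hoxd8 and Rarres2. Both were lower in Cdkn1b-null than in WT ovaries at PND8 and higher at 12wk, so both changed sign. No gene passed in the negative direction, whereas a fit with a replicate block within age called 3 positive and 7 negative interactions, 1 of them shared with the 2 above. At an unadjusted p under 0.05 the interaction held 2064 genes (11%), 1056 of them positive (5.63%) and 1008 negative (5.37%), which is the background against which every list below is read. The genotype effect at PND8 alone reached the adjusted threshold for 0 genes in edgeR, with 1889 at an unadjusted p under 0.05 (10.1%), while DESeq2 called 173 and limma-voom 336. At 12wk it did so for 39 genes (0.208%), 27 higher (0.144%) and 12 lower (0.0639%) in Cdkn1b-null ovaries. Development itself was the larger difference, with 6164 genes (32.8%) called between PND8 and 12wk in WT and 5872 (31.3%) in Cdkn1b-null ovaries. DESeq2 on the same counts called 308 interactions, 182 positive and 126 negative, of which 306 had an unadjusted p under 0.05 in edgeR, so the number called rests on the test used.

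Hoxd8 (ENSMUSG00000027102, chr2:74704615-74707933, plus strand) encodes a homeobox transcription factor of the HoxD cluster, whose members pattern the body axis and the reproductive tract. At PND8 it stood at 38.64, 31.42, 28.27 and 32.76 CPM in WT ovaries and at 22.55, 19.46 and 24.04 CPM in Cdkn1b-null ovaries. At 12wk it stood at 28.28, 26.32, 26.4 and 27.17 CPM in WT and at 45.84, 43.17 and 45.56 CPM in Cdkn1b-null ovaries. The genotypes did not overlap at either age, and their order was exchanged between them. The log2 fold change was -0.57 ± 0.10 at PND8 and 0.73 ± 0.10 at 12wk, giving an interaction of 1.30 ± 0.14 (edgeR, adjusted p = 0.00662). Read as a change with age, Hoxd8 was 0.28 lower in WT on the log2 scale at 12wk than at PND8 (log2 change -0.28) and 1.03 higher in Cdkn1b-null ovaries. The antisense gene Hoxd3os1 covers the Hoxd8 locus on the other strand. The strandedness of the libraries is not given in the sources used here, so reads of Hoxd8 and Hoxd3os1 may not be separable, and Hoxd3os1 had effects of the same direction, -0.69 at PND8 and 0.44 at 12wk.

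Rarres2 (chr6:48569696-48572789, minus strand) encodes chemerin, a secreted chemoattractant for macrophages and dendritic cells that also acts on adipose tissue and on steroid production, and its transcription is inducible by retinoids. It stood at 72.86, 80.7, 59.25 and 85.46 CPM in WT and at 45.56, 45.14 and 48.03 CPM in Cdkn1b-null ovaries at PND8. In the adult its level was 57.26, 53.06, 69.08 and 75.95 CPM in WT and 169.8, 122.0 and 182.1 CPM in Cdkn1b-null ovaries. As for Hoxd8, the genotypes were fully separated at both ages and in opposite order. The log2 fold change was -0.69 ± 0.16 at PND8 and 1.31 ± 0.16 at 12wk, where Rarres2 rose (edgeR, adjusted p = 0.00734). The interaction was 2.00 ± 0.23 (edgeR, adjusted p = 0.00662), equal to a 3.99-fold ratio of the 2 genotype effects. Both calls were sensitive to single libraries of the PND8 Cdkn1b-null group. Without its replicate 1 the adjusted p was 0.0585 for both genes, and without its replicate 3 that of Rarres2 was 0.0502, while the log2 values stayed between 1.21 and 1.37 for Hoxd8 and between 1.85 and 2.15 for Rarres2 in all 22 alternatives. Fitting a replicate block within each age gave an adjusted p of 0.0628 for Rarres2 (edgeR). Without the 2 adult libraries low in surface epithelium the interactions were 1.28 and 1.86 (edgeR, adjusted p = 0.0493 for both). The end of the Rarres2 gene overlaps Lrrc61 on the opposite strand, which had an interaction of the other sign, -0.34.

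**Figure D1:**
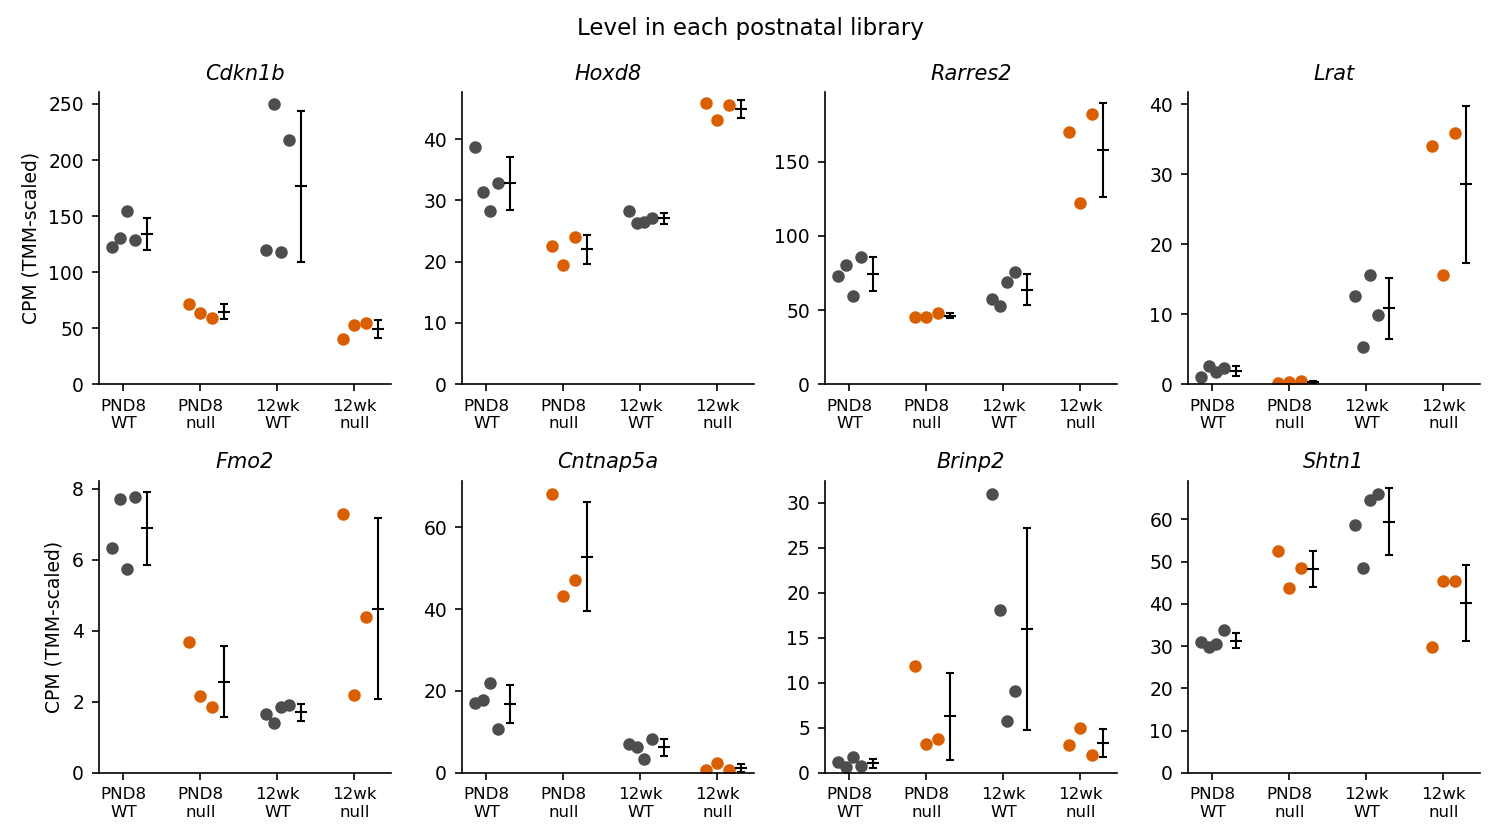
Level of 8 genes in each of the 14 postnatal libraries. The vertical axes are CPM on scaled library sizes and start at 0; grey points are WT and orange points Cdkn1b-null (null) libraries, and the bar beside each group is the mean with the SD. Hoxd8, Rarres2, Lrat and Fmo2 stand lower in null ovaries at PND8 and higher at 12wk, and Cntnap5a, Brinp2 and Shtn1 the other way round, whereas Cdkn1b is lower in null ovaries at both ages.

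The stretches upstream of Hoxd8 and of Hoxd10 are shown as 2 examples from 1 cluster, and both genes had an interaction above 0. All 28 Hox genes tested had one, so this does not set Hoxd10 apart. The stretches of the other HoxD genes, Hoxd9 among them, are not shown. The interaction of Hoxd10 did not pass (below), and its adult groups overlapped. Both stretches are from RefSeq on build GRCm38.p6, plus strand, and end at the base before the annotated start. Capitals mark AGGTCA, the half-site bound by retinoic acid receptors and other nuclear receptors, or its reverse complement TGACCT.
Hoxd8, chr2:74704365-74704614: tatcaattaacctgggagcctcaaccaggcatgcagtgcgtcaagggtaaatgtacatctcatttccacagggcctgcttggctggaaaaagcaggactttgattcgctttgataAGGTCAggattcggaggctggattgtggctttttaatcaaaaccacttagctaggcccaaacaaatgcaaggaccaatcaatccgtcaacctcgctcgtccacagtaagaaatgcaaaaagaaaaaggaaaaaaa
Hoxd10, chr2:74691641-74691890: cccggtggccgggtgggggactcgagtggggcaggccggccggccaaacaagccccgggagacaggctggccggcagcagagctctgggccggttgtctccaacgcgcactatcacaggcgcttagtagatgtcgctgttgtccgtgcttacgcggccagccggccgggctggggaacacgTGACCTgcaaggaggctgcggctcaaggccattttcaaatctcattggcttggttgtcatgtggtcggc
The motif was searched on both strands, and each stretch holds 1 match, on the plus strand upstream of Hoxd8 and on the minus strand upstream of Hoxd10. Of 32851 RefSeq promoter windows of this length, 4607 (14%) hold it, so a match is common and is given as a description only. Whether the stretches of the other HoxD genes hold it is not given, so the 2 shown are no count for the cluster. A link of the motif to the interaction was not tested.

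Sign changes were then counted without using the interaction p. With an unadjusted p under 0.05 at both ages, 125 genes had effects of opposite sign (0.666%) and 269 had effects of equal sign (1.43%). At PND8 1889 genes (10.1%) and at 12wk 2746 genes (14.6%) had such a p. Unrelated effects at these shares would give no fewer genes of opposite sign, so their count is a description only. The opposite-sign genes were unevenly divided, with 88 lower at PND8 and higher at 12wk in Cdkn1b-null ovaries (0.469%) and 37 the reverse (0.197%). Equal-sign genes were 191 higher (1.02%) and 78 lower (0.416%) at both ages. In 2694 genes the genotypes did not overlap at PND8 (14.4%) and in 1785 at 12wk (9.51%), while 71 genes were fully separated at both ages in opposite order (0.378%) and 178 in the same order (0.948%). Across all genes tested, the correlation of the 2 effects, which come from separate libraries, was -0.0353 (Pearson's r, across genes), and 48.8% had an interaction above 0. Genes share the libraries and are not independent replicates. Under a stricter rule, a log2 fold change of at least 1 in size and no overlap at both ages, 14 genes of opposite sign were left. Without PND8 Cdkn1b-null replicate 3, the count of opposite-sign genes was 60 and that of equal-sign genes 218.

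**Figure D2:**
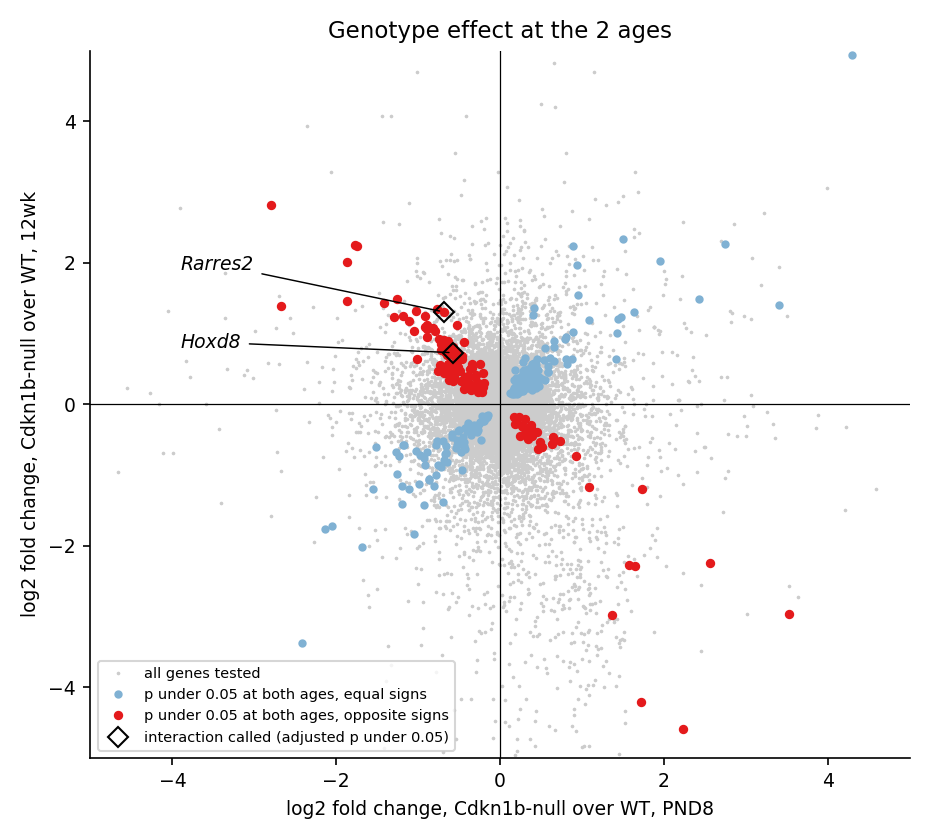
Genotype effect at PND8 (horizontal axis) and at 12wk (vertical axis), as log2 fold change of Cdkn1b-null over WT, for all genes tested within 5 of 0 on both axes, which leaves 67 genes outside. Red points are the 125 genes with opposite signs and blue points the 269 with equal signs at an unadjusted p under 0.05 at both ages; the upper left quadrant holds 88 of the red points, including the 2 called genes, and the lower right quadrant 37.

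The 88 genes that stood lower at PND8 and higher at 12wk had a median log2 fold change of -0.57 at PND8 and 0.57 at 12wk, against 0.01 and 0.00 over all genes tested. These medians follow from how the genes were picked and describe size only. Seen as changes with age, the 88 genes had a median of -0.30 in WT, with 26 above 0, and of 0.66 in Cdkn1b-null ovaries, with 76 above 0. In the 37 genes of the reverse pattern the median age change was 0.26 in WT, with 27 above 0, and -0.52 in Cdkn1b-null ovaries, with 4 above 0. Over all genes tested, 9246 of 18768 had an age change above 0 in WT and 9206 in Cdkn1b-null ovaries. For each gene the age change in Cdkn1b-null ovaries minus that in WT is the interaction. The direction of the gap between the genotypes is thus fixed by how the genes were picked. The age changes are therefore a description only. Of the 125 genes, 115 were protein coding (92%, against 82.1% of genes tested).

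Lrat had the largest positive interaction among the 10 genes of smallest p in that direction. It encodes lecithin retinol acyltransferase, which esterifies retinol for storage. At PND8 it stood at 1.028, 2.669, 1.685 and 2.315 CPM in WT and at 0.1871, 0.2666 and 0.468 CPM in Cdkn1b-null ovaries. In the adult its level was 12.58, 5.306, 15.54 and 9.867 CPM in WT and 34.05, 15.62 and 35.92 CPM in Cdkn1b-null ovaries. The genotypes were separated at both ages, narrowly at 12wk, where the lowest Cdkn1b-null library lay just above the highest WT library. The interaction was 4.07 ± 0.65, with an unadjusted p of 2.97e-05 and an adjusted p of 0.126 by edgeR, so Lrat did not pass. None of the interactions of the other genes below passed either.

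Fmo2, a flavin-containing monooxygenase that oxidizes xenobiotics, stood at 5.73 to 7.783 CPM in WT and at 1.843 to 3.7 CPM in Cdkn1b-null ovaries at PND8. At 12wk it stood at 1.395 to 1.919 CPM in WT and at 7.293, 2.196 and 4.388 CPM in Cdkn1b-null ovaries. Its genotypes were separated at both ages, and the interaction was 2.85 ± 0.50 (edgeR, adjusted p = 0.126). Sh3bp5, which encodes a binding partner of the kinase JNK at mitochondria, was at 68.4% of the WT mean at PND8 and at 140.4% at 12wk, again with no overlap. Tnfsfm13, an annotated read-through of the TNF family genes Tnfsf12 and Tnfsf13, was at 67.8% and 145.6%. Its counts are uncertain because both of those genes overlap it on the same strand, and they had interactions of 0.42 and 0.16. Tsku, a secreted leucine-rich proteoglycan, was at 64.8% and 126.4% of the WT mean, with overlap at 12wk only.

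For 3 further genes of this direction the adult effect carried most of the interaction. Aqp5, a water channel, rose at 12wk from 0.6091 to 1.563 CPM in WT to 3.051 to 4.501 CPM in Cdkn1b-null ovaries (edgeR, adjusted p = 0.0424), with a log2 fold change of -0.64 at PND8. Acat1, the mitochondrial acetyl-CoA acetyltransferase of ketone body metabolism, rose to 163.4% of WT at 12wk (edgeR, adjusted p = 0.00938) and stood at 98.1% at PND8. Tmem109, a membrane protein of the endoplasmic reticulum, rose to 136.9% of WT at 12wk (edgeR, adjusted p = 0.0272) and stood at 90.5% at PND8. None of the 3 passed the interaction test (edgeR, adjusted p = 0.126 for each).

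Other genes of this pattern, named after their values were seen, include secreted and signalling proteins. Il33, a cytokine of the interleukin-1 family released by damaged cells, stood at 1.091 to 2.955 CPM in WT and 0.5265 to 0.6651 CPM in Cdkn1b-null ovaries at PND8, and at 0.3638 to 1.593 CPM and 1.647 to 3.543 CPM at 12wk. The genotypes were separated in both cases. Angpt2, a ligand of the endothelial receptor Tie2 that destabilizes vessels, had log2 fold changes of -0.77 at PND8 and 1.35 at 12wk, where it stood at 19.31 to 41.25 CPM in WT and at 67.7 to 92.52 CPM in Cdkn1b-null ovaries. Boc, a co-receptor for hedgehog ligands, had log2 fold changes of -0.47 and 0.69. The abundant gene Itih5, a hyaluronan-binding heavy chain of the inter-alpha-trypsin inhibitor family, had log2 fold changes of -0.56 and 0.42. Id1, a target of BMP signalling, had -0.58 and 0.81, and the small heat shock protein gene Cryab had -0.47 and 0.64. Each of these 6 genes had an unadjusted p under 0.05 at both ages and an adjusted interaction p of 0.1275 or more by edgeR.

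In the reverse direction, Cntnap5a had the smallest interaction p. It encodes a cell adhesion molecule of the neurexin family. At PND8 it stood at 17.02, 17.69, 21.86 and 10.76 CPM in WT and at 68.07, 43.24 and 47.24 CPM in Cdkn1b-null ovaries. At 12wk it stood at 6.973, 6.276, 3.422 and 8.162 CPM in WT and at 0.7502, 2.296 and 0.617 CPM in Cdkn1b-null ovaries. Cdkn1b-null ovaries were thus above every WT library in the pup and below every WT library in the adult. The log2 fold changes were 1.65 ± 0.37 and -2.28 ± 0.44, and the interaction of -3.93 ± 0.58 came closest to the threshold among negative ones (edgeR, adjusted p = 0.0893).

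Brinp2, a neural protein of the BMP and retinoic acid inducible family, stood at 0.6066 to 1.709 CPM in WT and at 11.85, 3.226 and 3.744 CPM in Cdkn1b-null ovaries at PND8. The adult libraries had 30.96, 18.04, 5.752 and 9.136 CPM in WT and 3.084, 5.016 and 1.92 CPM in Cdkn1b-null ovaries. The genotypes did not overlap at either age, although the adult WT libraries spanned a wide range, and the interaction was -4.82 ± 0.91 (edgeR, adjusted p = 0.1275). Shtn1, which encodes shootin 1, a protein that couples actin flow to adhesion in growing axons, was at 154.5% of WT at PND8 and at 67.8% at 12wk. Bhlhe41, a transcriptional repressor of the circadian clock, was at 190.0% and 60.4%. Slc35f2, a solute carrier, was at 137.5% and 64.4%, and D2hgdh, the D-2-hydroxyglutarate dehydrogenase of mitochondria, at 118.6% and 73.5%. All 4 were separated by genotype at both ages. Cnmd, the gene of the angiogenesis inhibitor chondromodulin, named after its values were seen, stood at 160.6 to 189.2 CPM in WT and 259.2 to 351.4 CPM in Cdkn1b-null ovaries at PND8, and at 202.8 to 315.4 CPM and 115.5 to 212.5 CPM at 12wk, with overlap in the adult.

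The other 4 genes of smallest p in the negative direction had their difference mainly in the adult. Dynap, a dynactin-associated protein, fell at 12wk from 3.547 to 5.216 CPM in WT to 0.3085 to 0.6252 CPM in Cdkn1b-null ovaries (edgeR, adjusted p = 0.00734), with a log2 fold change of -0.26 at PND8. Foxq1, a forkhead transcription factor, fell at 12wk from 5.116 to 8.2 CPM to 0.7502 to 1.822 CPM (edgeR, adjusted p = 0.0429). Its PND8 log2 fold change was 0.60, at under 1 CPM in all 7 libraries. Nipal3, a membrane protein related to magnesium transporters, was at 64.3% of WT at 12wk and at 117.3% at PND8. Fbxw21, an F-box protein gene with close paralogs, so that its counts are uncertain, stood at 0.9706 to 9.651 CPM at PND8 and was at or under the smallest detectable level in all 3 adult Cdkn1b-null libraries, against 0.3347 to 3.569 CPM in WT.

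Hox genes were examined as a family because Hoxd8 was called. Hoxd8 is itself counted in the numbers and medians below, and none without it are given. The Hox proteins are transcription factors laid out in 4 clusters in the order of their domains along the body. Of 28 members tested, all 28 had an interaction above 0, against 48.8% of all genes. The log2 fold change was below 0 at PND8 in 25 and above 0 at 12wk in 26. An unadjusted p under 0.05 was reached by 5 of the 28 at PND8 (10.1% of all genes) and by 7 at 12wk (14.6%). Only Hoxd8 had one at both ages with opposite signs, against 0.666% of all genes. The members share the libraries, so their signs are not independent. At an unadjusted p under 0.05, 8 had a positive and 0 a negative interaction, against 5.63% and 5.37% of all genes. The list medians were -0.20 at PND8, 0.50 at 12wk and 0.77 for the interaction, against -0.01 for the interaction over all genes tested. The 8 were Hoxd3, Hoxd8, Hoxd9 and Hoxd10 of the HoxD cluster, Hoxb3 and Hoxb7 of HoxB, and Hoxc4 and Hoxc6 of HoxC. Hoxd9 stood at 45.41, 46.18, 41.03 and 38.64 CPM in WT and at 20.16, 16.4 and 18.72 CPM in Cdkn1b-null ovaries at PND8, and at 26.91, 15.37, 36.13 and 35.02 CPM and 41.3, 31.79 and 34.24 CPM at 12wk. The genotypes were far apart in the pup and overlapped in the adult, and the interaction of 1.55 ± 0.32 did not pass (edgeR, adjusted p = 0.144).

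Hoxd10 stood at 11.97 to 16.77 CPM in WT and 4.559 to 8.065 CPM in Cdkn1b-null ovaries at PND8, and at 5.033 to 11.3 CPM and 9.015 to 15.8 CPM at 12wk (interaction 1.84 ± 0.40; edgeR, adjusted p = 0.162). Hoxd3, named after its values were seen, stood at 2.462 to 4.088 CPM and 0.8938 to 1.173 CPM at PND8 and overlapped at 12wk, where its log2 fold change was -0.26. It overlaps Hoxd4 and Hoxd3os1, so its counts are uncertain, and Hoxd10 overlaps Gm28309. In Hoxb7 and Hoxc6, also named after their values were seen, the difference lay in the adult. Hoxb7 stood at 1.584 to 2.759 CPM in WT and at 3.942 to 4.584 CPM in Cdkn1b-null ovaries at 12wk, with a log2 fold change of -0.10 at PND8, and Hoxc6 at 20.77 to 27.84 CPM and 30.57 to 35.05 CPM, with -0.06 at PND8. The size of the shift rested partly on 1 library. Without 12wk Cdkn1b-null replicate 1, which had the highest mean level of the list among adult libraries, the median interaction was 0.50, with 25 of 28 above 0 and 6 positive at an unadjusted p under 0.05, and without that library and 12wk WT replicate 2 it was 0.49. Replicate 1 was also 1 of the libraries low in surface epithelium, whose part in the Hox result was not tested beyond these values.

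**Figure D3:**
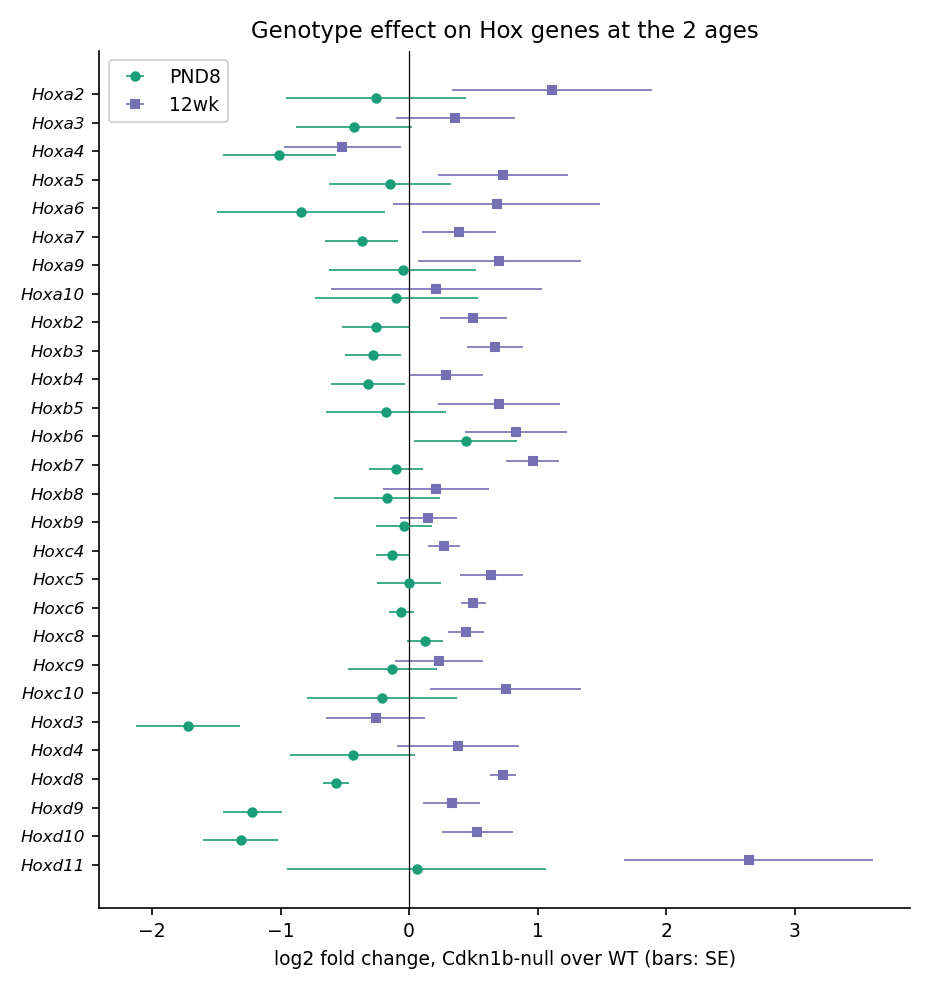
Genotype effect on 28 Hox genes at PND8 (green circles) and 12wk (purple squares). The horizontal axis is the log2 fold change of Cdkn1b-null over WT, and bars are the SE. The square lies to the right of the circle for all 28 genes, and the circles of Hoxd3, Hoxd9 and Hoxd10 lie farthest to the left.

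The list of retinoid and chemerin genes joins genes of retinol handling, the process to which Lrat belongs, with chemerin genes, Rarres2 among them. Retinol is carried by Rbp4 in blood, taken up through Stra6, stored by Lrat, and oxidized to retinoic acid by the Aldh1a enzymes, and retinoic acid binds the receptors Rara, Rarb and Rarg. Of 16 list members tested, 8 had a positive and 1 a negative interaction at an unadjusted p under 0.05, against 5.63% and 5.37% of all genes. The list was written with Rarres2 already known to stand out, and Lrat was not in it. Its medians were -0.40 at PND8, 0.41 at 12wk and 0.70 for the interaction, or -0.39, 0.50 and 0.73 without 1 gene at or under the smallest detectable level. Mean log2 CPM of the list was 3.79 to 4.13 in WT and 3.59 to 3.76 in Cdkn1b-null libraries at PND8, and 3.73 to 3.90 and 4.01 to 4.38 at 12wk. The libraries of the 2 genotypes were separated at both ages, in opposite order, but narrowly at PND8, at 3.79 against 3.76. The called gene Rarres2 is part of this mean, and no mean without it is given.

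Among the enzymes, Aldh1a3 stood at 4.647 to 8.508 CPM in WT and 2.719 to 4.3 CPM in Cdkn1b-null ovaries at PND8, and at 2.729 to 4.111 CPM and 4.192 to 9.049 CPM at 12wk (interaction 1.59 ± 0.41; edgeR, adjusted p = 0.208). Aldh1a2, another of these enzymes, named after its values were seen like Aldh1a1 and Stra6, had log2 fold changes of -0.88 and 0.81 with overlap at both ages. Aldh1a1 was the exception among them, higher in Cdkn1b-null ovaries at both ages. It stood at 265.8 to 330.8 CPM in WT and 337.7 to 473.9 CPM in Cdkn1b-null ovaries at PND8, and rose at 12wk from 710.5 to 843.5 CPM to 1237 to 2105 CPM (edgeR, adjusted p = 0.0104). The carrier gene Rbp4 had log2 fold changes of -0.65 and 1.25. The retinol transporter Stra6 was the member with a negative interaction. Its adult level was 62.15 to 149.8 CPM in WT and 28.3 to 42.32 CPM in Cdkn1b-null ovaries, with a log2 fold change of -0.23 at PND8 and an interaction of -1.42 ± 0.43 (edgeR, adjusted p = 0.268).

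Genes of smooth muscle and pericytes, the contractile cells of vessel walls and of the theca externa, also leaned from lower to higher. Of 11 tested, 10 had a log2 fold change below 0 at PND8, all 11 were above 0 at 12wk, and 8 had a positive interaction at an unadjusted p under 0.05. The medians were -0.43, 0.86 and, for the interaction, 1.19. An unadjusted p under 0.05 was reached by 2 of 11 at PND8 (10.1% of all genes) and by 7 at 12wk (14.6%). Mean log2 CPM of the list overlapped at PND8, at 4.50 to 5.87 in WT and 4.58 to 5.17 in Cdkn1b-null libraries. Without PND8 WT replicate 1 the PND8 median was -0.20 and the median interaction 0.93. Cnn1, the calponin of smooth muscle, stood at 18.04, 5.459, 4.791 and 11.9 CPM in WT and 6.672, 3.839 and 1.667 CPM in Cdkn1b-null ovaries at PND8. At 12wk it stood at 8.786, 6.791, 7.905 and 8.375 CPM in WT and 14.3, 8.609 and 33.56 CPM in Cdkn1b-null ovaries. The genotypes overlapped at both ages, and the adult difference was widest in replicate 4 (interaction 2.54 ± 0.79; edgeR, adjusted p = 0.279). Smtn, the gene of the actin-binding protein smoothelin, had log2 fold changes of -0.22 and 0.33, while Synpo2, which encodes an actin-bundling protein, was at 49.98% of WT at PND8 and at 135.2% at 12wk. Acta2, Myh11 and Rgs5 were named after their values were seen. The actin gene Acta2 stood at 271.6 to 319.0 CPM in adult WT and at 511.5, 368.8 and 769.1 CPM in adult Cdkn1b-null ovaries, with no overlap, and the myosin gene Myh11 at 145.3 to 187.1 CPM and 323.5, 154.7 and 515.2 CPM. The member with an interaction below 0 was Rgs5, a pericyte gene, at -0.07. Replicate 4 of the adult Cdkn1b-null group was the highest library for this list. Without it the median interaction was 0.87, with 6 of 11 positive at an unadjusted p under 0.05. Endothelial genes moved with that library, at a mean log2 CPM of 6.73 in it against 5.04 and 5.54 in the other Cdkn1b-null libraries and 5.02 to 5.30 in adult WT, and their part in the smooth muscle result was not tested.

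Stromal and fibroblast genes had 14 of 19 interactions above 0 and 6 positive, 0 negative, at an unadjusted p under 0.05, with a median of 0.28. This came mainly from PND8, where the median was -0.37 and 16 of 19 were below 0, while the adult median was -0.09. Ogn, the small proteoglycan osteoglycin, was the member with the smallest p. It stood at 120.7, 95.41, 44.78 and 112.7 CPM in WT and 65.25, 47.83 and 75.17 CPM in Cdkn1b-null ovaries at PND8, and rose at 12wk from 33.74 to 56.09 CPM to 114.9 to 157.0 CPM (edgeR, adjusted p = 0.0466). The genotypes overlapped in the pup and were apart in the adult (interaction 2.19 ± 0.42; edgeR, adjusted p = 0.1275). Tcf21, a transcription factor of mesenchymal progenitors, had log2 fold changes of -0.78 and 0.48, and Nr2f2, an orphan nuclear receptor of the stroma, -0.42 and 0.36. The abundant collagen genes did not share this, since the interactions of Col1a1, Col1a2 and Col3a1 were -0.39, 0.15 and -0.08. Without the 2 adult libraries low in surface epithelium the list's median interaction was 0.05, with 5 positive.

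Elastic fibre genes, which code for elastin and the microfibrils around it, had 12 of 13 interactions above 0 and 4 positive at an unadjusted p under 0.05, with a median of 0.49. The microfibril gene Mfap5 stood at 22.99 to 38.86 CPM in WT and 11.3 to 25.57 CPM in Cdkn1b-null ovaries at PND8, and at 6.7 to 15.44 CPM and 16.44 to 34.45 CPM at 12wk (interaction 2.03 ± 0.49; edgeR, adjusted p = 0.183). Mfap2, another microfibril gene, had log2 fold changes of -0.53 and 0.30, Efemp2, a protein of elastic fibre assembly, of -0.30 and 0.07, and Eln, the elastin gene, named after its values were seen, of -0.39 and 0.76. Elastin in the adult depended on replicate 4 of the Cdkn1b-null group, at 102.6 CPM against 41.64 and 27.77 CPM in the others.

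Oocyte genes had the largest shift of any list, and in the negative direction. These genes code for the zona pellucida, oocyte growth factors and maternal proteins. Of 29 tested, 28 had an interaction below 0, and 17 had a negative and 0 a positive one at an unadjusted p under 0.05. The median was 0.53 at PND8, where 23 were above 0, and -2.64 at 12wk, where 28 were below 0, for an interaction of -3.19. With genes absent from a whole group placed at 3 counts, and 1 gene left out, the medians were 0.58, -2.37 and -2.93. None passed the adjusted threshold, and at PND8 0 of 29 had an unadjusted p under 0.05, so the sign at PND8 is not separated from the spread between libraries. At 12wk 22 of 29 did, against 14.6% of all genes. In limma-voom with sample weights, 1 of the 29 interactions had an unadjusted p under 0.05 in the negative direction.

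The zona gene Zp3, named after its values were seen like Zp2, Gdf9, Figla, Nobox, Lhx8 and Kit, stood at 87.14, 20.09, 27.5 and 93.32 CPM in WT and 59.7, 154.0 and 77.86 CPM in Cdkn1b-null ovaries at PND8. The adult libraries had 1.422, 0.7579, 11.74 and 3.99 CPM in WT and 0.6668, 0.6238 and 0.5827 CPM in Cdkn1b-null ovaries. The WT libraries of each age differed several-fold among themselves, with replicate 3 highest in the adult. Bmp15, an oocyte growth factor that acts on granulosa cells, stood at 2.062 to 7.635 CPM in WT and 4.24 to 16.13 CPM in Cdkn1b-null ovaries at PND8, and at 1.152 to 13.8 CPM and 0.3428 to 0.4741 CPM at 12wk (interaction -4.53 ± 1.23; edgeR, adjusted p = 0.228). Gdf9, its partner, and the zona gene Zp2 followed the same course, with log2 fold changes of 0.86 and -2.33 and of 0.74 and -2.42. Kpna7, an importin of the oocyte, stood at 1.917 to 8.078 CPM in WT and 4.947 to 13.73 CPM in Cdkn1b-null ovaries at PND8, and at 0.2789 to 4.601 CPM in adult WT, while its adult Cdkn1b-null libraries were at or near the smallest detectable level. Tle6, of the subcortical maternal complex, stood at 20.1 to 41.94 CPM in WT and 11.3 to 14.5 CPM in Cdkn1b-null ovaries at 12wk.

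Figla, Nobox and Lhx8, early oocyte transcription factors, had PND8 log2 fold changes of -0.06, -0.02 and 0.12. In the adult Cdkn1b-null libraries Figla and Lhx8 had no count at all, which allows a level of up to 0.1246 CPM in the shallowest library, and Nobox stood at 0.2501 to 0.7198 CPM against 0.5857 to 5.339 CPM in WT. Figla had no count in 2 of the 4 adult WT libraries either. Kit, the receptor through which granulosa cells signal to oocytes and which other ovarian cells also carry, was the member with an interaction above 0. It stood at 23.47 to 43.43 CPM in WT and at no less than 73.59 CPM in Cdkn1b-null ovaries at 12wk, with no overlap. Without 12wk WT replicate 3, the highest library for these genes, the median interaction of the list was -1.89.

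**Figure D4:**
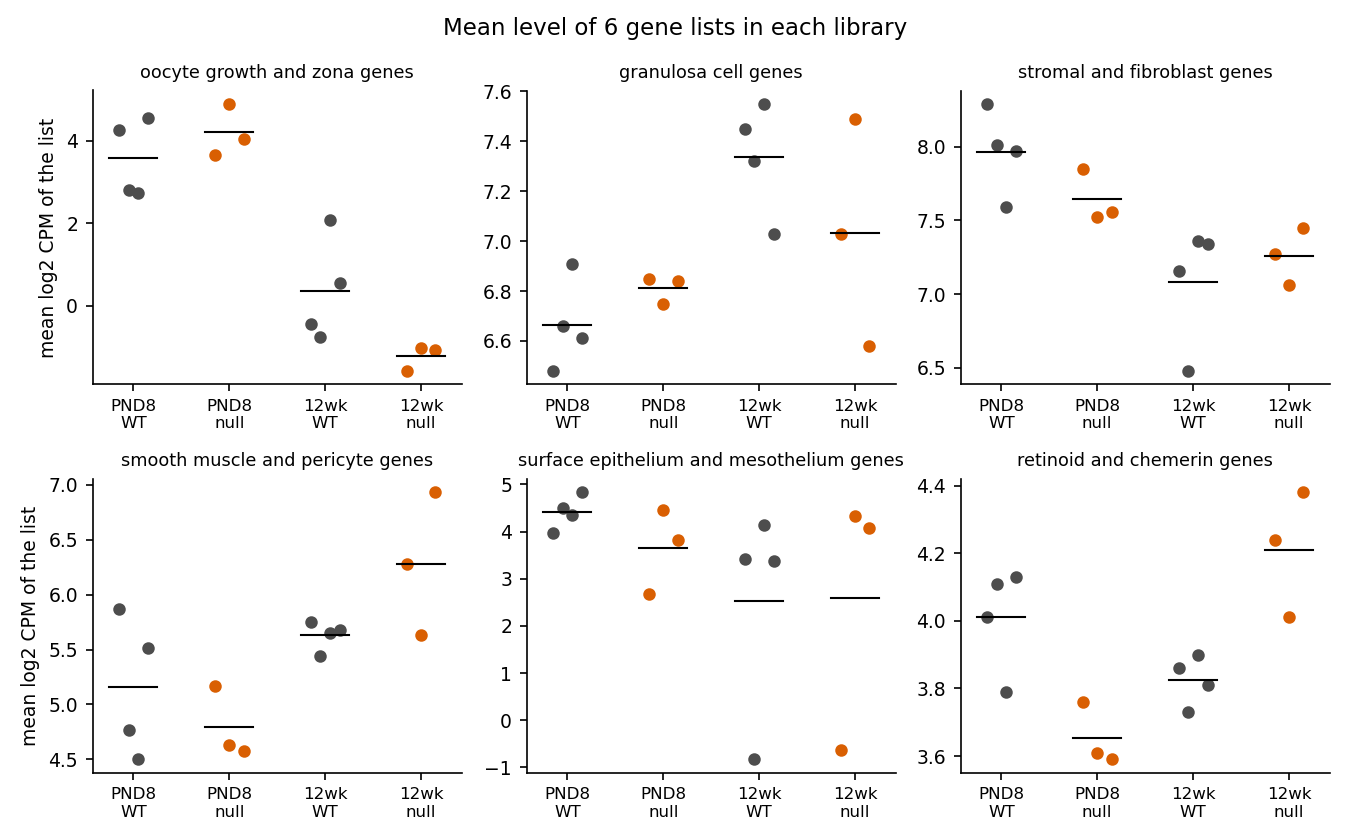
Mean log2 CPM of 6 gene lists in each library (vertical axes, 1 point per library, line at the group mean; grey WT, orange Cdkn1b-null). Retinoid and chemerin genes, with the called gene Rarres2 among them, separate the genotypes in opposite order at the 2 ages, narrowly at PND8. Oocyte genes overlap at PND8 and lie between -1.58 and -1.02 in adult null libraries. For surface epithelium genes, 1 WT and 1 null library of 12wk lie below 0.

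Granulosa cell genes leaned less far in the direction of the oocyte genes, with 18 of 21 interactions below 0, a median of -0.34, and 3 negative and 0 positive at an unadjusted p under 0.05. The 3 were Nr5a2, Fst and Esr2. Nr5a2, a nuclear receptor needed for ovulation, stood at 421.6 to 508.0 CPM in WT and 559.0 to 759.9 CPM in Cdkn1b-null ovaries at PND8, with no overlap, and at 625.2 to 898.0 CPM and 488.4 to 736.4 CPM at 12wk. Fst, which encodes the activin antagonist follistatin, had log2 fold changes of 0.41 and -0.65. Esr2, the oestrogen receptor of granulosa cells, had 0.29 and -0.25. The ovulation and cumulus genes had a median interaction of -0.12, with 1 of 13 positive and 2 negative at an unadjusted p under 0.05. Among them, Vcan, the matrix proteoglycan versican, fell at 12wk from 384.1 to 854.1 CPM to 196.0 to 312.5 CPM (edgeR, adjusted p = 0.0429), with a log2 fold change of -0.10 at PND8. Runx1, a transcription factor induced by luteinizing hormone, stood at 87.1 to 199.1 CPM and 51.55 to 74.69 CPM in the adult, with 0.39 at PND8. Both had interactions that did not pass (edgeR, adjusted p = 0.204 and 0.242). Ptx3, a pentraxin of the cumulus matrix, was the positive one, with log2 fold changes of -0.46 and 1.76 at levels of 0.3032 to 3.394 CPM.

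Steroidogenic genes as a list had a median interaction of -0.03, yet 3 of 20 had a positive one at an unadjusted p under 0.05 and 0 a negative one. Srd5a1, the enzyme that converts progesterone and testosterone to their 5-alpha reduced forms, stood at 13.09 to 15.37 CPM in WT and 13.12 to 21.97 CPM in Cdkn1b-null ovaries at PND8. It rose at 12wk from 30.14 to 33.42 CPM to 63.23 to 82.34 CPM (edgeR, adjusted p = 0.00734). Ephx1, the microsomal epoxide hydrolase, rose at 12wk from 66.52 to 87.24 CPM to 130.2 to 216.2 CPM (edgeR, adjusted p = 0.0215) and overlapped at PND8. Nr5a1, the transcription factor SF-1 that drives steroidogenic genes, stood at 220.0 to 276.6 CPM in WT and 308.9 to 393.2 CPM in adult Cdkn1b-null ovaries, with no overlap. Their interactions were 0.95, 1.25 and 0.62 (edgeR, adjusted p = 0.162, 0.159 and 0.184). Without the 2 adult libraries low in surface epithelium, 7 of 20 were positive and the list's median was 0.59.

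Cell cycle genes, which the targeted gene regulates, were divided. Of 28 S phase and mitosis genes, 0 had an interaction at an unadjusted p under 0.05 by edgeR, and 16 were above 0. Without 12wk WT replicate 3, 3 had a positive one and 26 were above 0, for a median of 0.23 and an adult median of 0.36, while without 12wk WT replicate 2 only 8 were above 0. With all libraries their medians were 0.16 at PND8 and 0.15 at 12wk, with 26 and 23 of 28 above 0, so the small lean was of 1 direction at both ages. Ccne2, Cdk1 and Rrm2, the members of smallest p, had interactions of 0.37, 0.22 and 0.34. Among 18 G1 cyclins, kinases and inhibitors, 2 had a positive and 4 a negative interaction at an unadjusted p under 0.05, Cdkn1b itself among the latter. Ccnd3, a D-type cyclin, stood at 73.02 to 88.01 CPM in WT and 38.77 to 56.89 CPM in Cdkn1b-null ovaries at PND8, with no overlap, and at 49.48 to 53.12 CPM and 42.42 to 71.5 CPM at 12wk (interaction 0.95 ± 0.23; edgeR, adjusted p = 0.189). Ccnd2, the D-type cyclin of granulosa cells, named after its values were seen like Cdkn2b and Rb1, was below WT at both ages instead, at 491.9 to 603.2 CPM against 741.8 to 1300 CPM in the pup and at 228.5 to 408.5 CPM against 466.0 to 862.4 CPM in the adult.

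The kinase Cdk6 showed the adult side of this division. It stood at 137.2 to 193.4 CPM in WT and 148.4 to 155.6 CPM in Cdkn1b-null ovaries at PND8, and fell at 12wk from 97.9 to 120.6 CPM to 57.31 to 75.04 CPM (edgeR, adjusted p = 0.0382). The other CDK inhibitors did not follow 1 course. Cdkn1c, which encodes the related inhibitor p57, had log2 fold changes of -0.25 and 0.52, and Cdkn2b, which encodes p15, of 0.22 and -2.48, with all 7 PND8 libraries under 1 CPM. Rb1, the retinoblastoma protein that D-type cyclin kinases phosphorylate, stood above WT in every Cdkn1b-null library at PND8 (43.75 to 49.18 CPM against 29.7 to 43.1 CPM) and overlapped at 12wk. None of these passed the interaction test (edgeR, adjusted p = 0.285, 0.348 and 0.299).

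In the PI3K and FOXO pathway, which acts in the activation of primordial follicles, 1 of 19 genes had a positive interaction and 2 a negative one at an unadjusted p under 0.05. The kinase gene Akt1 had log2 fold changes of -0.23 and 0.13, Mtor of 0.09 and -0.18, and Rptor, the scaffold of the mTOR complex that Mtor forms with it, of 0.09 and -0.17. These shifts are small, and the largest adjusted p among the 3 was 0.358 by edgeR. Among markers of other cell types, the counts were 0 of 14 surface epithelium genes, 1 of 15 macrophage genes, 2 of 12 lymphocyte genes, 0 of 6 erythroid genes and 0 of 12 immediate early and heat shock genes with an unadjusted p under 0.05, against 11% of all genes. They were 3 of 14 meiotic prophase genes, 0 of 6 oviduct epithelium genes and 0 of 2 adipocyte genes. The medians were uneven, at 1.18 for surface epithelium, 0.30 for macrophage, -0.46 for lymphocyte, -1.23 for erythroid, 0.15 for immediate early and heat shock, -0.23 for meiotic, -0.27 for oviduct and -0.73 for adipocyte genes, while that of the PI3K and FOXO genes was -0.10 and that of S phase genes 0.04. Without the 2 adult libraries low in surface epithelium, 6 of the 14 surface epithelium genes had a positive and 1 a negative interaction at an unadjusted p under 0.05, for a median of 1.34, and the macrophage median was 0.56. In limma-voom the surface epithelium median was -0.44. The erythroid genes, mainly globins, were above WT at both ages, with medians of 2.91 at PND8 and 1.88 at 12wk and 6 of 6 above 0 at each. At PND8 6 of 6 had an unadjusted p under 0.05, against 10.1% of all genes, and at 12wk 1 of 6. Their mean log2 CPM per library was 1.43 ± 2.02 (SD, n = 4) in WT and 4.43 ± 1.55 (SD, n = 3) in Cdkn1b-null ovaries at PND8, with overlap, and 2.34 to 2.89 and 3.39 to 5.00 at 12wk, with none. The part of blood RNA in the other differences was not tested. PND8 Cdkn1b-null replicate 1 had a mean log2 CPM of 6.19 against 3.81 and 3.27 in the others of its group, and without it the median interaction of the erythroid genes was 0.55 and their PND8 median 1.22.

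**Figure D5:**
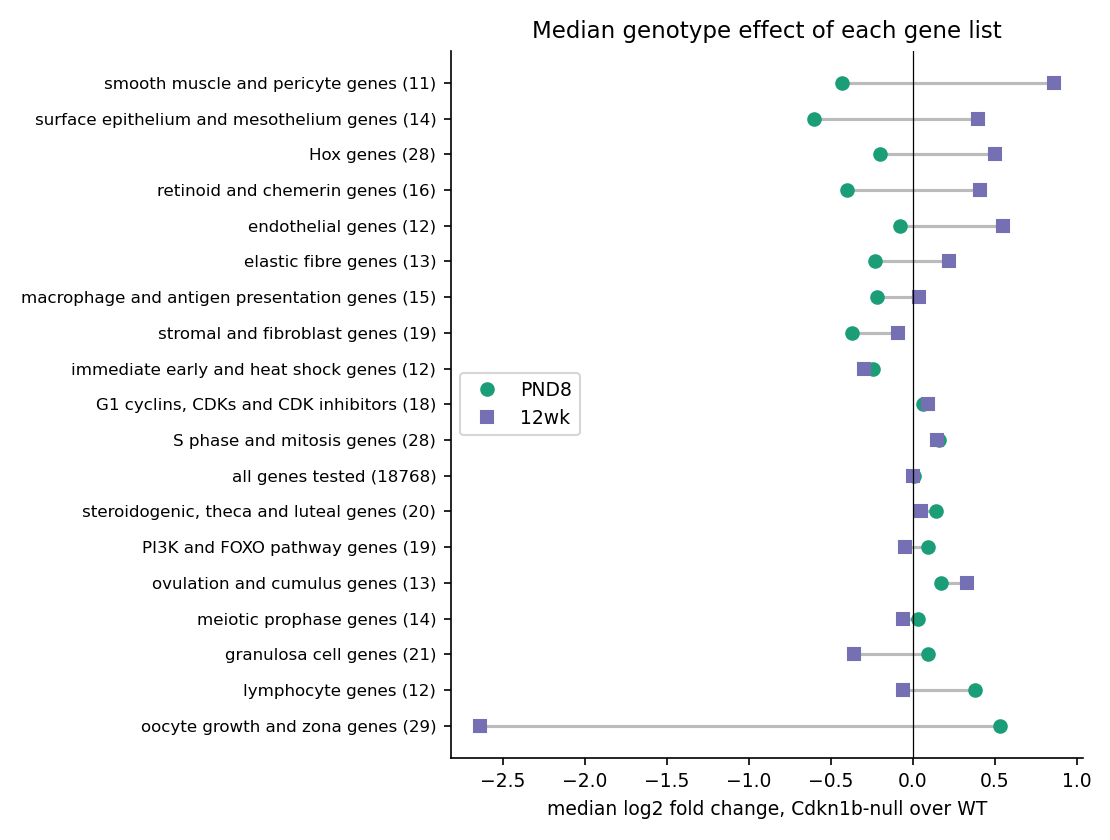
Median log2 fold change of Cdkn1b-null over WT at PND8 (green circles) and 12wk (purple squares) for each gene list with at least 10 genes tested, with the number tested in parentheses, ordered by median interaction. All genes tested lie at 0.01 and 0.00; smooth muscle genes run from -0.43 to 0.86, Hox genes from -0.20 to 0.50, and oocyte genes from 0.53 to -2.64.

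The 39 genes called at 12wk were also read backwards to PND8. Of them, 13 had a PND8 log2 fold change of opposite sign, and 35 had an interaction with an unadjusted p under 0.05, against 11% of all genes. The interaction holds the same adult difference by which the 39 were picked, so the 35 describe the calls only. Hoxd8 and Rarres2 were the 2 with an unadjusted p under 0.05 and the opposite sign at PND8. The adult call with the smallest p was Zfp521, a zinc finger regulator of progenitor cells named after its values were seen, which stood at 11.64 to 13.63 CPM in WT and 30.51 to 34.31 CPM in Cdkn1b-null ovaries at 12wk (edgeR, adjusted p = 0.0018). At PND8 it was at 30.91 to 46.34 CPM and 46.19 to 59.16 CPM, so its effect kept its direction and was larger in the adult. The set of adult calls was unstable to the libraries used. Without 12wk Cdkn1b-null replicate 1 it held 1 gene, without 12wk WT replicate 2 it held 219, and without both it held 39, of which 12 were among the original 39.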

How the data were processed

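Gene expression was measured by bulk RNA sequencing. Per the file headers, the authors deposited gene-level expected counts from RSEM, estimates that share ambiguous reads among genes, so that 31.4% of nonzero values had a fractional part. The submitters' processing notes name Trim Galore, FastQC 0.11.5, STAR 2.5.2 and RSEM 1.3.0. The genome build, annotation release and strandedness are not given in the sources used here. Families of close copies and overlapping genes are therefore uncertain.

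Counts of the 14 postnatal libraries (24072433 to 48213177 per library) were rounded and fitted with edgeR 4.0.16 in R 4.3.3. Library sizes were scaled by the trimmed mean of M-values, genes were kept by filterByExpr with a minimum count of 10 and a minimum total of 15, and the 4 groups were tested by robust quasi-likelihood F tests. This kept 18768 of 51912 gene IDs. P-values were adjusted by Benjamini-Hochberg over these genes, with a threshold of 0.05, and genes past it are described as called or as having risen or fallen. The SE is the log2 fold change over the square root of F. Log2 CPM of lists used a prior count of 2. The fit was also run on simulated counts, whose outcome is not given here. They were drawn independently for each gene and so hold no shifts shared by the genes of a library. Positions are GENCODE M21 on GRCm38, matched by gene ID for 51633 IDs, and may not match the authors' annotation.

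Named genes are Cdkn1b, the 10 genes of smallest interaction p in each direction with a mean of at least 2 CPM and no predicted name (as fewer than 20 were called), called genes of opposite sign, and the 3 of smallest p in each of 21 lists, of which 345 of 347 symbols matched. Others were named after their values were seen. The members of the comparison, the lists and the tests were chosen with earlier results of these data known.

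Alternatives were RLE scaling, no filter, DESeq2 1.42.0, limma-voom with sample weights (limma 3.58.1), all 29 samples in 1 fit, replicate blocks, a stricter rule for opposite signs, and leaving out each library. The SE and the SD include the spread between libraries, whereas the level given by 3 counts covers counting error only.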

Additional observations from a re-analysis of the deposited data

Results flagged for a closer look

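The genotype effect differed between the ages for Hoxd8, by 1.30 on the log2 scale, and for Rarres2, by 2.00, in the interaction test given above. The other entries are single libraries far from the other 3 of their WT group by Dixon's criterion, which chance meets in about 1 in 20 groups; 242 groups of 4 were examined for the named genes and 18 met it. The 12wk WT replicate 3 stood high for the oocyte genes Bmp15 (13.8 CPM), Kpna7 (4.601 CPM), Lhx8 (1.268 CPM) and Figla (0.2655 CPM), for the lymphocyte gene Cd8a (1.622 CPM) and for the meiotic gene Sycp3 (0.0295 CPM, below the level of 3 counts). The 12wk WT replicate 2, low in surface epithelium genes, stood low for Nr2f2 (82.74 CPM), Mylk (185.6 CPM) and Mrc1 (10.31 CPM) and high for Nr5a2 (898 CPM), and the 12wk WT replicate 1 stood high for Hba-a1 (16.96 CPM). At PND8, WT replicate 3 stood high for Aqp5 (3.973 CPM), Stra6 (149.4 CPM) and Hoxb7 (2.552 CPM) and low for Cryab (10.43 CPM). Also at PND8, WT replicate 2 stood high for Tmem109 (91.36 CPM), WT replicate 1 low for Aldh1a1 (265.8 CPM) and WT replicate 4 low for Cnmd (160.6 CPM).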

How the results depend on the processing

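With 3 or 4 libraries a group, the counts of called genes moved widely with the test and with single libraries. Interaction calls numbered 308 in DESeq2, 4 in limma-voom and 5 with all 29 samples in 1 fit, of which 287, 4 and 5 changed sign, and 0 to 13 when each library was left out in turn, with 0 to 13 sign changes. The count was 0 without PND8 Cdkn1b-null replicate 1, 1 without PND8 Cdkn1b-null replicate 3 and 13 without 12wk Cdkn1b-null replicate 3. Calls at PND8 numbered 4 with no filter on low counts, 173 in DESeq2, 336 in limma-voom, 8 without the 2 adult libraries low in surface epithelium, and 0 to 3 over the leave-one-out fits. Calls at 12wk numbered 713 in DESeq2, 63 in limma-voom, 68 with all 29 samples, and 1 to 219 over the leave-one-out fits. Genes of opposite sign numbered 213 in limma-voom, 78 with all 29 samples, 14 under the stricter rule, 177 without the 2 adult libraries low in surface epithelium and 60 to 176 over the leave-one-out fits. The interaction of Cdkn1b lay between -0.94 and -0.57 over those fits. Hoxd8 passed in 21 of 22 alternatives and Rarres2 in 19.

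The replicate numbers were not taken as pairs because the labels do not say that they mark a litter or animal. Same-numbered libraries of the 2 genotypes had deviations correlated at -0.016 to 0.172, over 0.1 in 3 of 6 pairs. Libraries of unlike number were correlated at -0.247 to 0.126. Of 12 libraries, 8 correlated best with their own number, and whether the numbers mark a shared source was not tested. A replicate block within age, with 4 residual degrees of freedom, gave 10 interaction calls, 3 positive and 7 negative, 7 of them sign changes and 1 shared with the 2 of the main analysis, 180 calls at 12wk and 194 genes of opposite sign, and list medians of -0.09 for G1 genes, -0.70 for oviduct genes, 0.08 for stromal genes, 0.34 for surface epithelium genes and 0.39 for steroidogenic genes, 6 of 20 of them positive at an unadjusted p under 0.05. A block across ages gave 3 interaction calls and 155 genes of opposite sign.

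Median interactions of lists over the leave-one-out fits ran from -3.56 to -1.89 for oocyte, -0.47 to 0.48 for steroidogenic, 0.61 to 0.83 for retinoid, -0.65 to -0.13 for granulosa, -0.88 to 0.35 for ovulation, 0.50 to 1.07 for Hox, -1.26 to 0.27 for lymphocyte, 0.02 to 0.96 for endothelial, -2.07 to 0.55 for erythroid, -0.53 to 0.02 for oviduct, -1.08 to 0.88 for adipocyte, -0.05 to 0.23 for S phase, -0.40 to 0.06 for meiotic, -0.09 to 0.46 for macrophage and -0.37 to 1.00 for immediate early genes. Without the 2 adult libraries low in surface epithelium they were 0.59 for steroidogenic, 0.49 for Hox, 0.05 for stromal, -0.24 for lymphocyte, -0.45 for oviduct and 0.86 for retinoid genes, and in limma-voom 0.45 for adipocyte genes. Of 2640 single-gene values under alternatives, 12 reversed sign. Over the leave-one-out fits Fabp4 lay between -2.78 and 1.14, Hba-a1 between -2.15 and 0.55 and Hba-a2 between -2.49 and 0.55, each above 0 without PND8 Cdkn1b-null replicate 1. Sycp3 lay between -1.09 and 5.76, below 0 without 12wk Cdkn1b-null replicate 3, and Ccnd2 between -0.50 and 0.01, above 0 without 12wk WT replicate 3. Rgs5 lay between -0.88 and 0.27, from 0.01 upwards in 6 of these fits, and at 0.13 without both adult libraries. The cause was not tested. Precision is limited by the number of libraries more than by depth, except for genes near the level of 3 counts.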

Other observations

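All 12 endothelial genes had an interaction above 0, with a median of 0.65, and 2 had a positive one at an unadjusted p under 0.05. Lyve1, a hyaluronan receptor of lymphatic endothelium and some macrophages, stood at 2.622, 0.6367, 1.416 and 2.863 CPM in WT and at 10.79, 6.413 and 26.94 CPM in Cdkn1b-null ovaries at 12wk, with no overlap. At PND8 it stood at 2.046 to 7.292 CPM and 1.58 to 4.592 CPM, and the interaction was 3.44 ± 0.87 (edgeR, adjusted p = 0.202). Prox1, the transcription factor of lymphatic identity, which other ovarian cells may also express, stood at 1.88 to 5.725 CPM and 5.29 to 17.45 CPM at 12wk, with overlap. Emcn, a marker of capillaries and veins, stood at 24.67 to 32.5 CPM in WT and at 35.18, 29.32 and 70.72 CPM in Cdkn1b-null ovaries. Replicate 4 was the highest adult Cdkn1b-null library for all 3, and without it the median interaction of the 12 endothelial genes was 0.02, with 6 above 0.

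The genotype effect before birth was also set beside the sign changes, using separate libraries of embryonic day 18.5 (E18.5). Of the 125 genes of opposite sign, 115 were tested at E18.5, and 86 (74.8%) had the sign of PND8 there. Of all genes with an unadjusted p under 0.05 at PND8, 1213 of 1702 (71.3%) did, so the genes of opposite sign were close to that background. Of the genes with an unadjusted p under 0.05 at 12wk, 1348 of 2353 (57.3%) had at E18.5 the sign of 12wk. The E18.5 log2 fold change of Hoxd8 was -0.58, and that of Rarres2, the other called gene, is not given here.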
